A study of Homo sapiens with 30 samples.

Results

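Chromosome conformation capture from 1 viewpoint (4C-seq) reads, from a chosen restriction fragment, the chromosomal fragments that were ligated to it after fixation. The share of reads at a place serves as a measure of how often the viewpoint was in contact with it. Contacts of the CTCF site S4 near NOTCH1 were compared between K562 cells with a mutated S5 site and unedited (WT) K562 cells. K562 is an established human chronic myeloid leukaemia line. The comparison held the 2 libraries titled S5 mutant and the 2 titled WT at the S4 viewpoint, which are 4 of the 30 libraries of the series. The other libraries read the same 5 genotypes (WT, single mutants of S2, S4 and S5, and an S4-S5 double mutant) from 3 viewpoints: S4, S2 and the NOTCH1 promoter. The measure was the read count at the chromosome 9 fragment ends more than 5 kb from S4, which leaves out the undigested and self-ligated fragments at the viewpoint itself. The series' design text describes the mutated sites as depleted of CTCF. Neither the position of S5, nor the kind of mutation, nor whether the mutant cells were a clone or a pool is stated in the labels.

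CTCF is a zinc-finger protein that binds DNA at oriented motifs, and together with the cohesin complex it halts loop extrusion and so anchors chromatin loops and borders of topological domains. NOTCH1 encodes a receptor of cell-to-cell signalling that acts in blood cell fate decisions. Loss of a CTCF site can let a neighbouring anchor form contacts with sites farther along the chromosome.

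In hg19 the S4 viewpoint was centred at position 139523746 of chromosome 9. The promoter viewpoint lay 80.5 kb centromeric of it and the S2 viewpoint 137.9 kb centromeric. The NOTCH1 gene body runs from its promoter in the centromeric direction, towards S2. In the RefSeq gene order of GRCh38, the protein-coding neighbours of NOTCH1 are SEC16A, INPP5E and PMPCA on the centromeric side and EGFL7, AGPAT2 and DIPK1B on the telomeric side. No position is given for these neighbours, since that annotation is of another build. The S4 tables list 428705 fragment ends, of which 3290 lay within 500 kb of S4 and outside the 5-kb mask. Reads at these 3290 ends are called near-cis, and each share below is a percentage of a library's near-cis reads unless another denominator is named.

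The S5 mutant libraries held 5322698 and 5791557 chromosome 9 reads and the WT libraries 1600859 and 2212517. The near-cis reads, which set the precision, were closer in number, at 1269845 and 1385317 in the S5 mutant and 798736 and 1113164 in WT. At this viewpoint WT differed from all mutants in how reads were spread. The single viewpoint end took 25.5% and 24.4% of chromosome 9 reads in WT, 69.5% and 69.4% in the S5 mutant and from 50.7% to 88.7% in the other mutants. Of the reads outside the mask, 73.4% and 73.3% were near-cis in WT, against 89.7% and 89.9% in the S5 mutant and 88.0% to 88.7% in the other mutants. The part of this gap in the results below was not tested, and for that reason each regional value is given against WT and also against mutants that keep S5. An exact permutation test of 2 libraries against 2 cannot go below p = 0.3333, so tests across bins or regions used edgeR's quasi-likelihood fit of all 10 libraries of the viewpoint.

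Replicate libraries resembled each other closely. Over near-cis ends, log-scaled read counts correlated at 0.991 between the S5 mutant libraries and at 0.994 between the WT libraries, and at 0.562 to 0.721 between libraries of different genotypes (40 pairs). Their counts nevertheless differed by more than sampling noise, with a chi-square of 5.80 per degree of freedom in the S5 mutant and 6.74 in WT. The labels call the libraries of a condition independent and do not say whether they came from separate cultures, so every p-value measures only how far these libraries lie apart, which may be a technical spread. 4C reads carry no molecular identifier, and reads at an end are therefore not independent ligation events. No fragment end marked the S5 mutation in the files: of 1024 near-cis ends read in all 6 libraries at S4 that keep S5, 4 were at 0 in all 4 libraries with S5 mutated, and none of these positions was shared by all 3 viewpoints. The same check for the S2 and S4 mutations gave 12 of 962 and 2 of 991 ends at S4, again with no shared position. It thus marked none of the sites, and no conclusion on S5 is drawn from it.

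**Figure D1:**
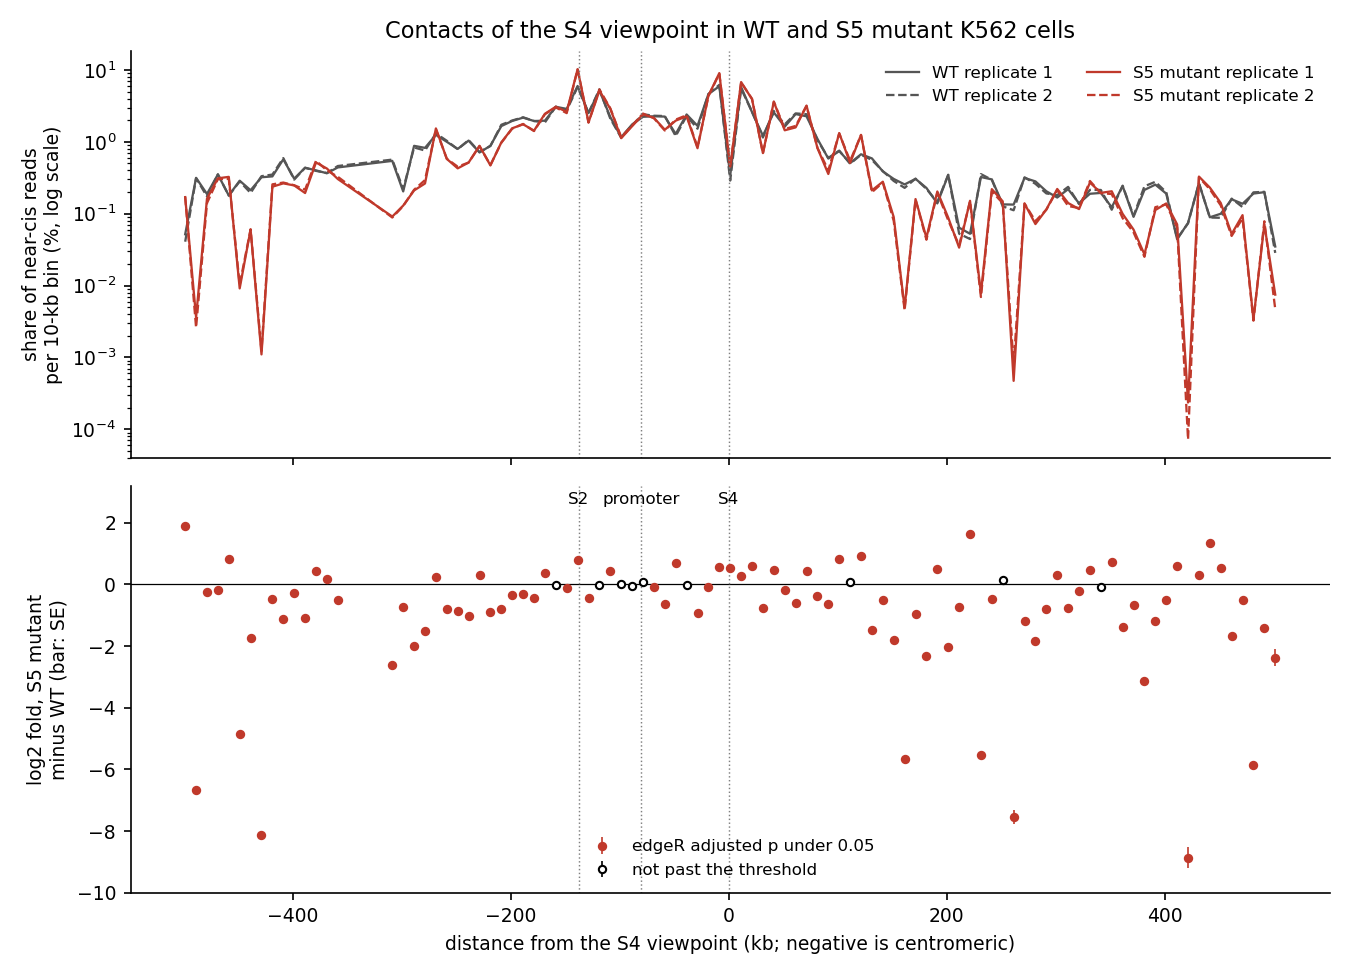
Upper panel: share of near-cis reads per 10-kb bin (%, log scale) against distance from S4 (kb, negative is centromeric) in the 2 WT (grey) and 2 S5 mutant (red) libraries. Lower panel: edgeR log2 fold change of the S5 mutant over WT per bin with its SE, filled where the adjusted p is under 0.05. The replicate lines lie on each other, the bin at S2 stands above its neighbours in the S5 mutant at 10.2%, and the deepest falls lie in bins far from S4.

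For the tests, the window was parted into 9 stretches by the 3 viewpoint centres. All 9 (100.0%) differed between the S5 mutant and WT in edgeR's test at an adjusted p under 0.05, with 4 higher (44.4%) and 5 lower (55.6%) in the S5 mutant. Against the average of the S2 and S4 mutants all 9 (100.0%) differed too, 5 higher (55.6%) and 4 lower (44.4%), and against the S4-S5 mutant 7 (77.8%) differed, 3 higher (33.3%) and 4 lower (44.4%).

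The contact between S4 and S2 was the most prominent one outside the surroundings of S4, and its share was higher in the S5 mutant than in WT. The 10-kb bin that holds the S2 viewpoint centre (chr9:139380001-139390000) took 10.2% of near-cis reads in each S5 mutant library and 5.98% and 5.79% in the WT libraries. Both S5 mutant libraries were thus well above both WT libraries, with no overlap. The log2 fold change was 0.79 (SE 0.0251), or 1.73-fold, with an edgeR adjusted p of 3.17e-15. This bin was the highest outside 50 kb of S4 in both genotypes. All 27 of its fragment ends had reads in all 4 libraries, and the most covered held 26.6% of its reads in the S5 mutant and 17.2% in WT.

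The other mutants took different shares in this bin. The S4-S5 mutant, which also lacks S5, had a mean of 10.1% in this bin, and the difference of the S5 mutant from it was 0.0099 on the log2 scale (edgeR adjusted p = 0.696). The mean was 8.96% in the S4 mutant and 4.63% in the S2 mutant. Against the average of these 2 mutants, which keep S5, the S5 mutant was higher by 0.66 on the log2 scale, with an edgeR adjusted p of 1.42e-15. The S2 mutant carries its change at the contacted site itself, and the S4 mutant at the viewpoint site. The S4 mutant libraries, which keep S5, also lay above WT in this bin, at 8.87% and 9.05% against a WT mean of 5.88%. The average thus joins 2 unlike levels, and no contrast with the S4 mutant alone was fitted. Over the wider stretch within 10 kb of S2, the share was 12.4% and 12.3% in the S5 mutant and 8.22% and 8.15% in WT. The fold change there was 0.60 on the log2 scale (SE 0.0165, edgeR adjusted p = 2.16e-17). The S4 mutant libraries lay between, at 10.4% and 10.6%, the S2 mutant libraries were lowest, at 6.53% and 6.79%, and the S4-S5 mutant libraries were highest, at 12.7% and 12.9%. The S5 mutant was above the average of the S2 and S4 mutants by 0.56 on the log2 scale (edgeR adjusted p = 5.33e-18). It was below the S4-S5 mutant by a log2 difference of -0.049 (edgeR adjusted p = 0.00992). This did not pass when scaled to the chromosome 9 reads outside the mask (-0.022) or in a 1-Mb window (-0.032).

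Much of the rise around S2 lay at 2 fragment ends, picked for their coverage after the values were seen. A blind end, on a DpnII fragment with no site for the second enzyme, lies at position 139388323, 2.45 kb telomeric of the S2 centre. It took 2.73% and 2.69% of near-cis reads in the S5 mutant and 0.554% and 0.572% in WT, a 4.81-fold difference. A non-blind end at 139383704, 2.17 kb centromeric of the centre, took 2.41% and 2.38% in the S5 mutant and 0.894% and 0.842% in WT, a 2.76-fold difference. Both ends were higher in each S5 mutant library than in either WT library. Another end, at 139388143 and only a short way from the first, moved the other way: it took 0.405% and 0.394% in the S5 mutant and 0.945% and 1.07% in WT. It was the most covered end within 10 kb of S2 in WT, and it lost that rank in the S5 mutant.

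Blind and non-blind ends contributed unequally to this rise. Blind ends within 10 kb of S2 took 6.28% ± 0.0646 (SD, n = 2) of near-cis reads in the S5 mutant and 2.93% ± 0.0928 (SD, n = 2) in WT. Non-blind ends there took 6.09% ± 0.0155 (SD, n = 2) in the S5 mutant and 5.25% ± 0.0412 (SD, n = 2) in WT. With non-blind ends alone, scaled to each library's non-blind near-cis reads, the log2 fold change of the stretch was 0.13 (edgeR adjusted p = 0.00033). That of the S2 bin was 0.29. Counting covered ends in place of reads, scaled to each library's covered near-cis ends, gave 0.34 for the stretch. This did not pass the edgeR test (adjusted p = 0.287). The number of covered ends itself was lower in the S5 mutant, at 49 and 50 against 53 and 51 in WT. Capping the highest ends gave 0.38. Of the 53 ends with reads within 10 kb of S2, 22 (41.5%) were higher in both S5 mutant libraries than in both WT libraries. Over all near-cis ends with reads the corresponding share was 24.9% (506 of 2030). Lower in both were 29 of the 53 ends (54.7%) and 62.1% of all near-cis ends.

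**Figure D2:**
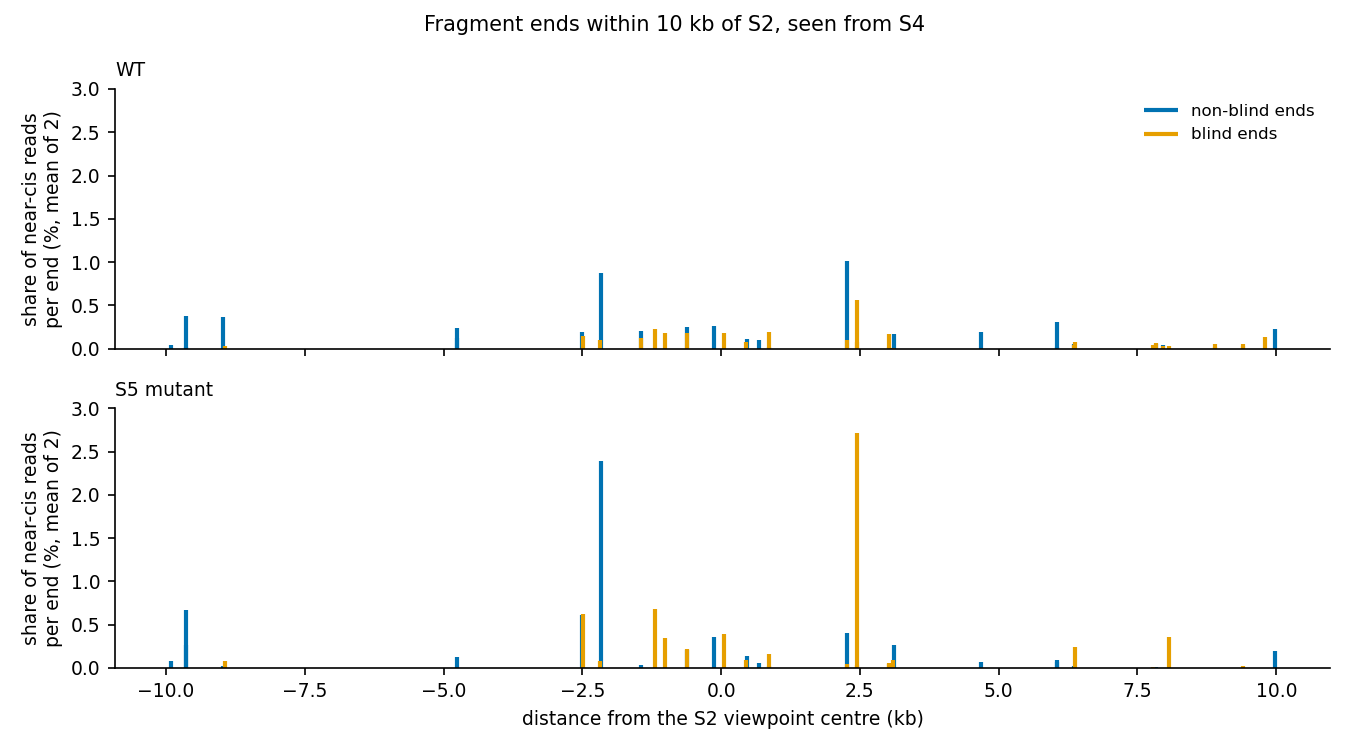
Share of near-cis reads per fragment end (%, mean of 2 libraries) against distance from the S2 viewpoint centre (kb), for WT above and the S5 mutant below, with non-blind ends in blue and blind ends in orange. The blind end at 2.45 kb and the non-blind end at -2.17 kb rise to 2.71% and 2.39% in the S5 mutant, while the non-blind end at 2.27 kb, the highest in WT at 1.01%, falls to 0.399%.

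Contacts next to S4 also took a larger share in the S5 mutant. The ends 5 to 10 kb from S4, on both sides together, took 12.5% and 12.3% in the S5 mutant and 8.01% and 8.13% in WT. The S5 mutant libraries lay above the WT libraries, with a log2 fold change of 0.62 (SE 0.0148, edgeR adjusted p = 2.58e-18). All 4 mutants were above WT in this stretch: the other 3 had means of 13.3% (S4-S5), 13.5% (S2) and 13.5% (S4). The S5 mutant was lower than the S4-S5 mutant by a log2 difference of -0.096 (edgeR adjusted p = 8.9e-06) and lower than the S2 and S4 mutants by -0.12 (edgeR adjusted p = 2.74e-08). The first did not pass without the top end of each bin (-0.025, edgeR adjusted p = 0.255), and the second did not pass with non-blind ends alone (-0.014, edgeR adjusted p = 0.445). Capping the highest ends gave a difference of 0.31 from WT on the log2 scale. Covered ends, scaled to each library's covered near-cis ends, gave 0.26, which did not pass the edgeR test (adjusted p = 0.435). Unscaled, 32 and 33 ends were covered in the S5 mutant and 36 in each WT library.

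The bin just centromeric of the mask (chr9:139510001-139520000) took 9.02% and 8.87% in the S5 mutant and 5.92% and 6.20% in WT. The libraries did not overlap, and the log2 fold change was 0.56 (SE 0.0272, edgeR adjusted p = 1.03e-12). The other mutants were above WT there too, with means of 9.77% (S4-S5), 8.44% (S2) and 9.58% (S4). The bin's most covered end held 27.9% of its reads in the S5 mutant and 26.8% in WT. Capping the highest ends left a log2 difference of the S5 mutant from WT of 0.12. The most covered end, at 139518567, took 2.47% and 2.51% of near-cis reads in the S5 mutant and 1.02% and 1.03% in WT. A neighbouring end at 139516161 took 1.82% and 1.73% in the S5 mutant and 1.52% and 1.73% in WT, where the genotypes overlapped. Only 4 ends of the bin just telomeric of the viewpoint (chr9:139520001-139530000) lay outside the mask. They took 0.449% and 0.450% in the S5 mutant and 0.341% and 0.289% in WT. Without the one most covered over all 10 libraries the direction turned, to a log2 difference of -0.29.

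On the telomeric side, from 10 to 100 kb beyond S4, the S5 mutant held 19.3% and 19.5% of near-cis reads and WT 17.5% and 17.8%. Both S5 mutant libraries were above both WT libraries, and the log2 fold change was 0.14 (SE 0.0141, edgeR adjusted p = 1.58e-08). This was the highest share of the 5 genotypes here: the S5 mutant was above the S4-S5 mutant by 0.14 (edgeR adjusted p = 4.04e-08) and above the S2 and S4 mutants by 0.30 (edgeR adjusted p = 6.91e-15). Under TMM scaling the difference from WT was 0.034 and did not pass the edgeR test (adjusted p = 0.111), and it was 0.43 with non-blind ends alone. Over the whole window, 27.8% of the 97 bins tested were higher and 62.9% lower than WT in edgeR's test. Single bins went both ways within this flank, with 4 of 9 higher and 5 lower than WT. The highest of them (chr9:139530001-139540000) took 6.78% and 6.68% in the S5 mutant and 5.79% and 5.49% in WT, a log2 fold change of 0.26 (SE 0.0280, edgeR adjusted p = 1.16e-07). The bin at chr9:139590001-139600000, among the 3 highest of the S5 mutant outside 50 kb, took 3.19% and 3.15% in the S5 mutant and 2.26% and 2.42% in WT. In both bins the S5 mutant libraries lay above the WT libraries, and so did those of every other mutant. Means of the others were 6.10% (S4-S5), 10.1% (S2) and 7.51% (S4) in the first bin. In the second they were 2.93%, 3.03% and 2.81% in that order. Capping the highest ends left a log2 difference of the S5 mutant from WT of 0.033 in the first bin, which did not pass the edgeR test. It left 0.53 in the second. The most covered end held 24.1% and 22.0% of the reads of these bins in the S5 mutant and 14.0% and 12.4% in WT.

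At the NOTCH1 promoter, the size and sign of the difference depended on the processing. The bin that holds the promoter viewpoint centre (chr9:139440001-139450000) took 2.41% and 2.47% in the S5 mutant and 2.23% and 2.41% in WT. The genotypes overlapped, and the log2 difference of 0.071 (SE 0.0382) did not pass the edgeR test (adjusted p = 0.0895). It passed without the second WT library, at 0.13 (edgeR adjusted p = 0.00523), and under every other scaling tried, at 0.32 to 0.36. It also passed with the highest ends capped, at 0.44 (edgeR adjusted p = 2.01e-11; the S2 bin was then at 0.52), and without the most covered end, at 0.42 (edgeR adjusted p = 3.36e-13). A 20-kb mask gave 0.15 and a 1-Mb window 0.13, both past the threshold. Non-blind ends alone, scaled to the non-blind near-cis reads, gave -0.11 (edgeR adjusted p = 0.0112). Its most covered end held 27.4% of its reads in the S5 mutant and 38.6% in WT. Within 10 kb of the promoter, the S5 mutant libraries took 3.58% and 3.66% and the WT libraries 3.90% and 4.04%, which is lower in the S5 mutant by a log2 difference of -0.13 (SE 0.0316, edgeR adjusted p = 0.000543). That direction depended on the processing. Scaling to the chromosome 9 reads outside the mask gave 0.16, capping gave 0.11 and leaving out the most covered end of each bin gave 0.081. Non-blind ends there took 2.50% ± 0.038 (SD, n = 2) of all near-cis reads in the S5 mutant and 2.38% ± 0.113 (SD, n = 2) in WT. Scaled to the non-blind near-cis reads, their log2 difference was -0.012 and did not pass the edgeR test (adjusted p = 0.722). Over all ends of this stretch, the S4-S5 mutant libraries held 3.89% and 3.94%, the S2 mutant libraries 4.62% and 4.92%, and the S4 mutant libraries 3.05% each. The S5 mutant differed from the S4-S5 mutant by -0.11 (edgeR adjusted p = 0.0027) and from the average of the S2 and S4 mutants, between which it lay, by -0.076 (edgeR adjusted p = 0.0133). Single ends here moved both ways. The end at 139442214 took 0.641% and 0.661% in the S5 mutant and 0.372% and 0.438% in WT, and that at 139446940 took 0.660% and 0.674% in the S5 mutant and 0.835% and 0.956% in WT. These 2 ends, chosen after their values were seen, did not overlap between the genotypes.

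Between S2 and the promoter, where the NOTCH1 body lies, the share was 10.6% and 10.9% in the S5 mutant and 10.3% in each WT library. The log2 difference was 0.071 (SE 0.0158, edgeR adjusted p = 0.000347). It was -0.22 with non-blind ends alone, and under TMM scaling it was -0.035 and did not pass the edgeR test (adjusted p = 0.0712). The S5 mutant was lower here than the S4-S5 mutant, whose libraries held 13.2% and 13.04%, by a log2 difference of -0.28 (edgeR adjusted p = 3.55e-12). It was higher than the S2 and S4 mutants by 0.41 (edgeR adjusted p = 3.08e-16). The highest bin of the interval (chr9:139400001-139410000) took 5.13% and 5.36% in the S5 mutant and 5.19% and 5.37% in WT. The libraries of the 2 genotypes interleaved, and the log2 difference was -0.0093 (SE 0.0295, edgeR adjusted p = 0.763), but it passed as higher under every other scaling tried (0.24 to 0.28) and with capped ends (0.11), and as lower with non-blind ends (-0.14) and in a 250-kb window (-0.092).

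Between the promoter and S4, the share was 12.9% in each S5 mutant library and 14.9% and 14.5% in WT, lower by a log2 difference of -0.19 (SE 0.0172, edgeR adjusted p = 5.92e-09). The S5 mutant libraries lay below the WT libraries and above those of every other mutant, the nearest being the S4-S5 mutant at 12.2% and 11.8%. The difference from the S4-S5 mutant was 0.11 on the log2 scale (edgeR adjusted p = 1.02e-05; 0.032 and not past the threshold with DESeq2), and that from the S2 and S4 mutants was 0.35 (edgeR adjusted p = 1.52e-14). The difference from WT turned to 0.11 when scaled to the chromosome 9 reads outside the mask and was 0.0044 after capping (edgeR adjusted p = 0.778).

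**Figure D3:**
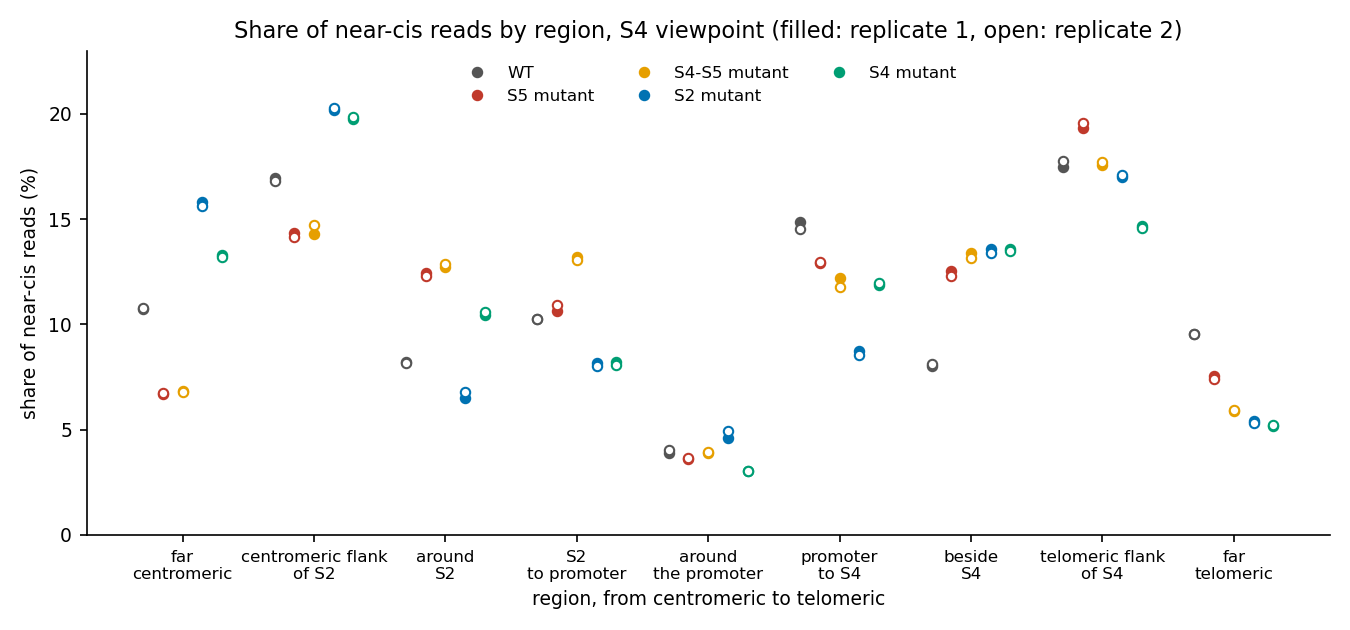
Share of near-cis reads (%) in 9 stretches that part the window within 500 kb of S4, ordered from centromeric to telomeric, with filled points for replicate 1 and open points for replicate 2 of each of the 5 genotypes. The S5 mutant points lie near those of the S4-S5 mutant in the far centromeric stretch, at 6.70% and 6.82% as means, in the centromeric flank of S2 and around S2, where they lie just below them without overlap (12.4% and 12.8%), and farther from them between S2 and the promoter.

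Beyond S2, on the centromeric side, the share fell in the S5 mutant. The stretch from 10 to 100 kb centromeric of S2 took 14.4% and 14.2% in the S5 mutant and 17.0% and 16.8% in WT, a log2 difference of -0.24 (SE 0.0152, edgeR adjusted p = 1.18e-11). The libraries did not overlap, though scaling to the chromosome 9 reads outside the mask turned the difference to 0.047. The stretch more than 100 kb centromeric of S2 (chr9:139023746-139285871) took 6.68% and 6.73% in the S5 mutant and 10.7% and 10.8% in WT. There the log2 difference was -0.68 (SE 0.0134, edgeR adjusted p = 1.8e-19), and it was -0.39 when scaled to the chromosome 9 reads outside the mask. Counted as covered ends, scaled to each library's covered near-cis ends, it was -0.060 and did not pass the edgeR test (adjusted p = 0.572). Unscaled, 283 and 297 ends of the stretch were covered in the S5 mutant and 406 and 397 in WT.

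The mutants fell into separate levels in these stretches. In the far centromeric stretch the S2 mutant libraries held 15.8% and 15.6% and the S4 mutant libraries 13.3% and 13.2%, all above WT, while the S4-S5 mutant libraries held 6.84% and 6.79%. The S5 mutant differed from the average of the S2 and S4 mutants by -1.11 on the log2 scale (SE 0.0121, edgeR adjusted p = 6.24e-24), a difference in the same direction as that from WT and larger in size. It differed from the S4-S5 mutant by -0.024 (SE 0.0133), which did not pass the edgeR test (adjusted p = 0.0958). That contrast depended on the processing: it passed as lower with TMM (-0.044), a 1-Mb window (-0.090), DESeq2 (-0.10) and non-blind ends (-0.16), and as higher without the top end of each bin (0.064) and in a 250-kb window (0.53), which holds only the nearer part of the stretch. In the centromeric flank of S2, the difference was -0.49 from the S2 and S4 mutants (edgeR adjusted p = 1.9e-17) and -0.023 from the S4-S5 mutant (SE 0.0151, edgeR adjusted p = 0.141). Without the first S4-S5 mutant library, the latter passed the test at -0.044 (edgeR adjusted p = 0.000761).

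By 10-kb bins, 88 of the 97 tested (90.7%) differed between the S5 mutant and WT in edgeR's test at an adjusted p under 0.05, so a call by itself singled out no bin. Of these, 27 were higher (27.8% of all bins) and 61 lower (62.9%). TMM scaling raised the median log2 difference of all bins, which was -0.46, by 0.25 and gave 39 higher and 52 lower. On counts of covered ends, scaled to each library's covered near-cis ends, edgeR called 0 bins, with 1 at an unadjusted p under 0.05. The far centromeric stretch held 18 lower and 5 higher bins of 23, with a median log2 difference of -0.81. Of its bins, 14 were lower than WT and lower than the S2 and S4 mutants, as were 26 of all 97 bins. Between the S5 mutant and the S2 and S4 mutants, 94 of all 97 bins (96.9%) differed, with 58 higher (59.8%) and 36 lower (37.1%). Against the S4-S5 mutant, 86 of 97 (88.7%) differed, 44 higher (45.4%) and 42 lower (43.3%). The highest bin of that stretch (chr9:139250001-139260000) went against it: it took 1.54% and 1.495% in the S5 mutant and 1.25% and 1.31% in WT, a log2 fold change of 0.24 (SE 0.0330, edgeR adjusted p = 1.68e-06), with 18.0% of its reads in its most covered end in both genotypes. With non-blind ends alone its log2 difference was 0.0035 and did not pass. In this bin the S2 and S4 mutants, at means of 3.97% and 1.82%, were above the S5 mutant. The S4-S5 mutant was below WT, at 1.11%. In the centromeric flank of S2, the highest bin (chr9:139360001-139370000) did not differ past the threshold, at 3.07% and 3.004% in the S5 mutant and 3.07% and 3.08% in WT (log2 -0.017, edgeR adjusted p = 0.542), though it passed as higher under the other scalings (0.23 to 0.27) and with capped ends (0.14), and as lower with non-blind ends (-0.15) and in a 250-kb window (-0.10).

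From 100 to 500 kb telomeric of S4, the share was 7.55% and 7.41% in the S5 mutant and 9.55% and 9.53% in WT. The S5 mutant libraries lay below WT, with a log2 difference of -0.35 (SE 0.0175, edgeR adjusted p = 3.52e-13), and above those of every other mutant. The difference was 0.33 from the S4-S5 mutant (edgeR adjusted p = 3e-12) and 0.50 from the S2 and S4 mutants (edgeR adjusted p = 6.97e-17). Against WT it was -0.061 when scaled to the chromosome 9 reads outside the mask (edgeR adjusted p = 0.00345). Of the 9 stretches, this one alone passed edgeR's test against WT on covered ends scaled to each library's covered near-cis ends, at -0.26 (adjusted p = 0.00236). Its 41 bins held 27 lower and 11 higher than WT, a split near that of all 97 bins (62.9% lower and 27.8% higher). The highest bin of this stretch (chr9:139620001-139630000) took 1.32% and 1.31% in the S5 mutant and 0.744% and 0.754% in WT, a log2 fold change of 0.81 (SE 0.0310, edgeR adjusted p = 4.2e-14). The other mutants were above WT in it too, with means of 1.03% (S4-S5), 1.28% (S2) and 1.08% (S4). The telomeric share of all near-cis reads was 30.5% in each S5 mutant library and 30.1% in each WT library, while the other mutants had 23.9% to 27.6%.

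The largest changes among single bins lay far from S4, and several of them rested on few ends or few reads. At least 2-fold differences were found in 30 bins (30.9%), of which 27 were lower and 3 higher in the S5 mutant. All 30 lay in the far centromeric stretch (10 lower, 1 higher) or the far telomeric stretch (17 lower, 2 higher). The bin at chr9:139030001-139040000 held 46 and 36 reads in the S5 mutant and 2518 and 3475 in WT, a log2 difference of -6.66 (SE 0.106, edgeR adjusted p = 3.12e-19). It was still read at 17 and 12 ends in the S5 mutant, against 22 and 21 in WT. The other mutants were not low there, with means of 0.240% (S4-S5), 0.202% (S2) and 0.478% (S4), against 0.314% in WT and 0.00311% in the S5 mutant. In chr9:139090001-139100000 the S5 mutant libraries had 14 and 17 reads and the WT libraries 2566 and 3701, of which 68.7% sat in 1 end. Means there were 0.146% (S4-S5), 0.00325% (S2) and 0.0923% (S4), against 0.327% in WT. The bins at chr9:139780001-139790000 (6 and 11 reads against 1069 and 1242 in WT) and chr9:140000001-140010000 (43 and 45 against 1522 and 2204) fell likewise, the first of them only when blind ends were included: with non-blind ends alone its log2 difference was 0.60. In the first, means were 0.0370% (S4-S5), 0.125% (S2) and 0.0216% (S4), against 0.123% in WT. In the second they were 0.0727%, 0.00411% and 0.0736% in that order, against 0.194% in WT. At chr9:139940001-139950000 the bin held 3 and 1 reads in the S5 mutant and 595 and 816 in WT, where 87.2% sat in 1 end. All mutants were low there, with means of 0.00102% in the S2 mutant, 0.00233% in the S4 mutant and 1.93e-05% in the S4-S5 mutant, against 0.0739% in WT.

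The largest rises were smaller. The bin at chr9:139020001-139030000, which the edge of the window cuts, took 0.170% and 0.172% in the S5 mutant and 0.0517% and 0.0408% in WT, a log2 fold change of 1.90 (SE 0.0888, edgeR adjusted p = 6.47e-13). A single end held 60.8% of its reads in the S5 mutant. Without the end highest over all 10 libraries the value was 0.67. At chr9:139740001-139750000 the bin took 0.151% and 0.148% in the S5 mutant and 0.0526% and 0.0444% in WT, with a log2 fold change of 1.64 (SE 0.0854) and 50.1% of its reads in 1 end. That at chr9:139960001-139970000 took 0.231% and 0.219% against 0.0891% and 0.0884% in WT (log2 1.34, SE 0.0759), with 51.3% in 1 end. The bin at chr9:139640001-139650000 rested on more reads: it took 1.25% and 1.24% in the S5 mutant and 0.671% and 0.660% in WT, with a log2 fold change of 0.90 (SE 0.0319, edgeR adjusted p = 1.57e-14). With non-blind ends alone that bin was lower in the S5 mutant, at -0.28. Lastly, chr9:139060001-139070000 rose by 0.82 on the log2 scale, to 0.325% and 0.305% from 0.179% and 0.178%. In the S5 mutant 51.3% of its reads sat in 1 end, and without the end highest over all 10 libraries the value was -0.031. Means at 139020001 were 0.00472% (S4-S5), 0.451% (S2) and 0.142% (S4). In that order they were 0.0800%, 0.00318% and 0.0662% at 139740001 and 0.172%, 0.229% and 0.0557% at 139960001. They were 0.674%, 1.52% and 0.877% at 139640001 and 0.0580%, 0.553% and 0.285% at 139060001. The S2 mutant, which keeps S5, was above the S5 mutant at 139020001, 139060001 and 139640001, so those rises were not particular to the S5 mutant.

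The S5 mutant libraries read fewer fragment ends than the WT libraries although they held more near-cis reads. Reads were found at 42.9% and 43.8% of the 3290 near-cis ends in the S5 mutant and at 57.5% and 57.6% in WT. At an equal depth of 424277 near-cis reads, the size of the smallest of the 10 libraries, the expected coverage was 35.1% and 35.5% in the S5 mutant and 55.3% and 54.0% in WT, and it was 35.9% to 41.0% in the other mutants. The S5 mutant libraries were below all other libraries on this measure. At this depth, coverage within 10 kb of S2 was 75.3% and 76.9% in the S5 mutant and 85.7% and 83.5% in WT, so the share of reads was higher around S2 while fewer of its ends were read. In the far centromeric stretch the S5 mutant was at 29.7% and 30.5% and the S4-S5 mutant near it at 29.2% and 30.3%, with the S2 and S4 mutants at 37.4% to 39.0% and WT at 51.7% and 49.1%.

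**Figure D4:**
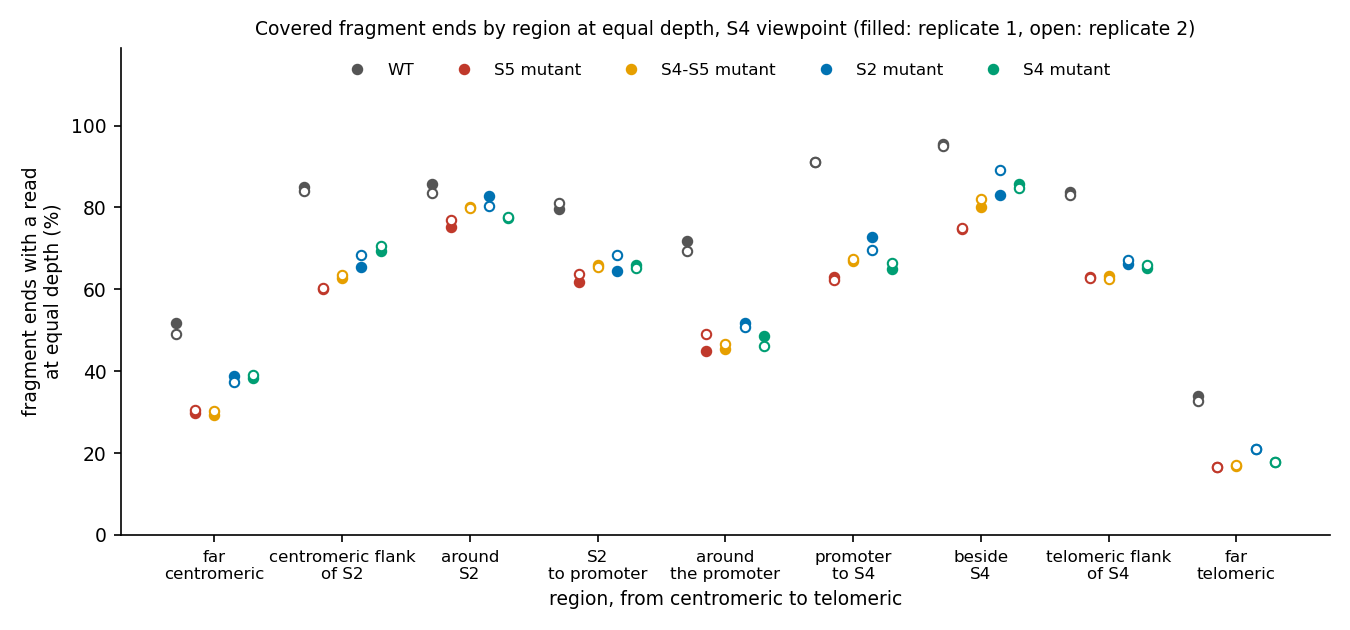
Fragment ends with at least 1 read at an equal depth of 424277 near-cis reads (%), by stretch, for the 10 libraries of the S4 viewpoint (filled: replicate 1, open: replicate 2). Both WT libraries lie above every mutant library in all 9 stretches, and both S5 mutant libraries lie below all others in 6 of them.

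The same reads were concentrated in fewer ends. The most covered 76 and 77 ends held 50% of the near-cis reads of the S5 mutant libraries, against 182 and 166 ends in WT and 48 to 99 in the other mutants. The most covered end alone took 2.73% and 2.69% in the S5 mutant and 1.52% and 1.73% in WT. Of the 10 most covered ends, 4 were shared between the genotypes, and of the 100 most covered, 55. Ends with reads in both S5 mutant libraries numbered 1263, of which 1171 also had reads in both WT libraries. These are 92.7% of the S5 mutant's ends and 64.5% of the 1816 ends read in both WT libraries. Ends read in both WT libraries and in neither S5 mutant library numbered 384 and held 3.69% of WT near-cis reads. The reverse held for 29 ends, with 0.163% of S5 mutant reads.

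Near S4 the S5 mutant held a larger share of its reads than WT. Within 50 kb of S4 lay 33.8% of near-cis reads in each S5 mutant library and 28.9% and 28.7% in the WT libraries, and the other mutants held 29.7% to 31.1%. The slope of log reads on log distance was -0.73 in each S5 mutant library and -0.64 and -0.63 in WT, and lay between -0.67 and -0.46 in the other mutants. With these settings the S5 mutant libraries were beyond all 8 others on both measures. The slope depended on the window and the mask: within 250 kb it was -0.391 in each S5 mutant library and -0.390 and -0.375 in WT, and with a 20-kb mask the S4-S5 mutant libraries, at -1.06 and -1.05, were steeper than the S5 mutant libraries, at -1.01 and -1.02. The exact two-sided permutation test of either measure against WT gave p = 0.3333, the smallest that 2 libraries against 2 allow.

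Farther along chromosome 9 the S5 mutant held smaller shares of the reads outside the mask than WT at every distance. From 500 kb to 1 Mb the shares were 3.75% and 3.64% against 6.40% and 6.41% in WT, and from 1 to 5 Mb they were 3.08% and 3.07% against 7.24% and 7.23%. From 5 to 20 Mb the S5 mutant held 2.08% and 2.05% and WT 6.55% and 6.64%. Beyond 20 Mb the shares were 1.40% and 1.38% against 6.37% and 6.41%, and the other mutants held 0.633% to 1.04%, below the S5 mutant. The genotypes did not overlap in any of these classes (exact two-sided permutation p = 0.3333 in each).

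**Figure D5:**
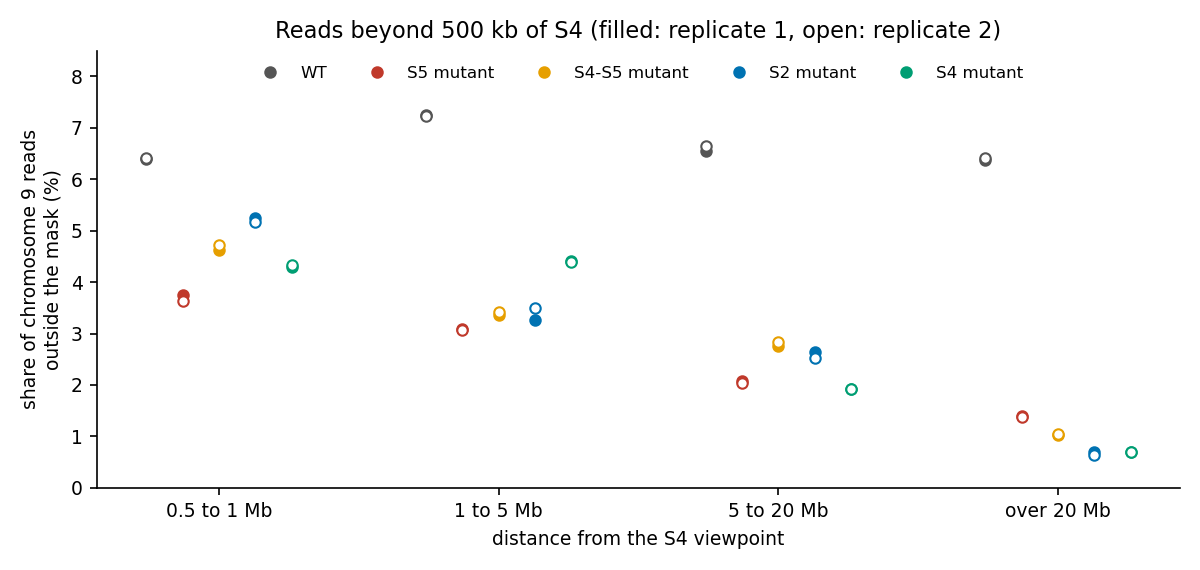
Share of chromosome 9 reads outside the mask (%) by distance from S4, in 4 classes beyond 500 kb, for the 10 libraries of the S4 viewpoint (filled: replicate 1, open: replicate 2). WT lies above all mutants in each class, from 6.40% at 500 kb to 1 Mb to 6.39% beyond 20 Mb as means, where the S5 mutant falls from 3.70% to 1.39%.

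In 1-Mb bins beyond 500 kb, 93 of 100 tested (93.0%) differed between the S5 mutant and WT in edgeR's test, with 19 higher (19.0%) and 74 lower (74.0%) as shares of the reads beyond 500 kb. Bins entered the test by a mean read count that included the WT libraries. A bin read almost only in WT could thus enter and be called lower. How much of the split follows from this filter was not tested. The median bin was read at 3 ends in the S5 mutant and 7.5 in WT. Counted as covered ends, 1 bin passed edgeR's test. Another scaling moved the split further than for the near-cis bins. It went to 5 higher of 96 called with the chromosome 9 reads outside the mask and 39 of 97 with DESeq2. The 3 largest rises included the bin from 124000001 to 125000000, with 1952 and 2184 reads at 11 and 12 ends in the S5 mutant and 1011 and 1295 reads at 15 and 18 ends in WT. Its log2 fold change was 2.03 (SE 0.0850). It was 0.65 when scaled to the chromosome 9 reads outside the mask, 2.92 with TMM and 4.95 with DESeq2. The bin from 106000001 to 107000000 (log2 2.01, SE 0.131) held 691 and 791 reads in the S5 mutant, all at 1 end, and 372 and 468 reads at 4 ends in WT, and under the same scalings it was at 0.63, 2.90 and 4.93. That from 39000001 to 40000000 held 983 and 1068 reads at 1 end in the S5 mutant and 1 read in each WT library. The 3 largest falls were bins without a read in either S5 mutant library. An upper bound of 3 reads there equals 0.00205% and 0.00192% of the reads beyond 500 kb. That bound takes reads as independent, which they are not, and may be too low. In WT, the bin from 9000001 to 10000000 held 247 and 402 reads at 1 end. That from 10000001 to 11000000 held 276 and 412 reads at 2 and 4 ends in WT. That from 89000001 to 90000000 held 542 and 746 reads at 4 and 3 ends in WT. The S2, S4 and S4-S5 mutants were low there too, with means of at most 0.0018% of the reads beyond 500 kb. The WT means were 0.0924%, 0.0986% and 0.186% in that order, so these falls were not particular to the S5 mutant.

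Read from the other viewpoints, the same contacts had other values. From the S2 viewpoint, the bin that holds S4 took 4.78% and 4.70% of near-cis reads in the S5 mutant and 5.32% and 5.29% in WT, lower in the S5 mutant, while within 10 kb of S4 the shares were 10.9% and 11.0% against 9.83% and 9.71%. From the promoter viewpoint, which was read at another set of fragment ends, the stretch within 10 kb of S4 took 5.77% and 5.76% in the S5 mutant and 4.70% and 4.72% in WT.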

How the data were processed

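Each deposited table lists the fragment ends of chromosome 9 (hg19) for 1 library as whole read counts, which per the file headers the authors deposited unscaled. The aligner, filters and counter are not stated, and the submitters' processing notes name hg19 and deepTools without a role. Scaled and smoothed columns in the tables were not used. Per the labels' protocols, cells were fixed in 2% formaldehyde for 10 min, cut with DpnII and then NlaIII or CviQI, and 200 ng of template had 16 cycles of a first PCR before single-read sequencing of 150 bp.

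The viewpoint centre was the middle of the 5-kb window with the most reads over 10 libraries. Ends more than 5 kb and up to 500 kb away were summed in 10-kb bins and 9 regions, and farther ends in 1-Mb bins. Bins with a mean under 10 reads were left out. edgeR 4.0.16 (R 4.3.3) fitted all 10 libraries with library sizes set to the reads of the window, two-sided, with Benjamini-Hochberg adjustment and a threshold of 0.05, and was tested on simulated data. For covered ends, the library size was the library's number of covered ends over the same stretch. For non-blind ends, capped ends and top ends left out, the library size was the sum of the reads kept. Near-cis reads at non-blind ends numbered 813837 and 889317 in the S5 mutant and 475192 and 689799 in WT. Log2 fold changes are of shares, and a share can fall because another rises. Bins named were the 5 largest changes each way whose libraries did not overlap, those holding S2 and the promoter, the nearest on each side of S4, the 3 highest outside 50 kb in WT and in the S5 mutant, and the highest of each region. For 1-Mb bins, the 3 largest changes each way were named. Members, regions and lists were chosen with earlier results of these data known. Alternatives covered scaling (chromosome 9 reads outside the mask, TMM, DESeq2 1.42.0), mask, window, bin size, end type, caps at the 99th percentile, covered ends, left-out libraries and the replicate block. Scaling to all chromosome 9 reads, those in the mask included, was not run. Leaving out the most covered end of each bin and the regional contrasts with other mutants were added after seeing the data. The end left out, also called the top end, was in each bin the one with the highest mean share over all 10 libraries. It need not be the most covered end of the S5 mutant or of WT. Deviations of same-numbered libraries correlated at 0.02 between the S5 mutant and WT and at -0.04 to 0.53 over the 10 pairs of genotypes (0.53 for the S4 and S5 mutants), so the numbers were not taken as pairs.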

Additional observations from a re-analysis of the deposited data

Results flagged for a closer look

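Contacts read from both of their ends moved in opposite directions in 2 cases, with every S5 mutant library on one side of every WT library each time. From S4, the bin holding S2 was higher in the S5 mutant than in WT by 0.79 on the log2 scale, while from S2 the bin holding S4 differed by -0.16. From S4, the stretch within 10 kb of the promoter differed by -0.13, while from the promoter the stretch within 10 kb of S4 was higher by 0.29. The differences between viewpoints were not tested. Within 10 kb of S4, seen from S2, the S5 mutant was higher by 0.16, so the first case held for the bin and not for the wider stretch. The second case held for the stretch and not for the bins, which were higher by 0.071 from S4 and by 0.58 from the promoter. The -0.13 itself turned to 0.16 with the chromosome 9 reads outside the mask as the library size. It was 0.11 with capped ends and 0.081 without the top end of each bin.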

How the results depend on the processing

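Beside its reported value each result was recomputed with 1 choice changed at a time. Read-based alternatives kept the direction of the S5 mutant against WT in the far centromeric stretch (-0.89 to -0.39 on the log2 scale), around S2 (0.13 to 0.89), beside S4 (0.31 to 0.91), in the telomeric flank (0.034 to 0.43) and in the far telomeric stretch (-0.54 to -0.061). The other 4 stretches turned under at least 1 of them. The cause of a turned sign was not tested.

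Covered ends were scaled to each library's own number of covered ends, so a positive difference can go with fewer covered ends. Over covered ends, fewer units are counted than over reads, and no 10-kb bin passed in any of the 3 comparisons: 0 called, 0 higher, 0 lower and 0 at least 2-fold. The regional log2 differences from WT were then -0.060 (far centromeric), 0.12 (centromeric flank), 0.34 (around S2), 0.19 (S2 to promoter), 0.027 (around the promoter), 0.062 (promoter to S4), 0.26 (beside S4) and 0.17 (telomeric flank). Those from the S4-S5 mutant turned to 0.049 (far centromeric), 0.13 (around the promoter), -0.059 (promoter to S4), 0.061 (beside S4) and -0.035 (far telomeric), and those from the S2 and S4 mutants to 0.0091 (centromeric flank), -0.015 (around S2), 0.10 (around the promoter), 0.045 (beside S4) and -0.028 (far telomeric). In 1-Mb bins 1 was higher and 0 lower.

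Called bins against WT numbered 49 in a 250-kb window (16 higher, 33 lower, 10 at least 2-fold), 179 in a 1-Mb window (50, 129 and 96), 166 as 5-kb bins (56, 110 and 83) and 44 as 20-kb bins (12, 32 and 14), where other numbers of bins were tested. In the same 4 settings, 24, 77, 82 and 24 were higher and 21, 99, 86 and 21 lower than in the S4-S5 mutant, and 31, 95, 101 and 28 higher and 17, 73, 74 and 18 lower than in the S2 and S4 mutants. With the chromosome 9 reads outside the mask as the library size 41 bins were higher than WT, and with DESeq2 also 41. These shifted the median of all bins by 0.29, and TMM by 0.25. In 1-Mb bins the number higher was 5 with the chromosome 9 reads outside the mask, 33 with TMM, 39 with DESeq2 and 4 as 5-Mb bins, of which 19 were lower.

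Scaled to the chromosome 9 reads outside the mask, the regional difference from WT turned to 0.047 (centromeric flank), 0.16 (around the promoter) and 0.11 (promoter to S4), and that from the S4-S5 mutant to 0.0027 in the far centromeric stretch and 0.0037 in the centromeric flank. From S2 to the promoter it was -0.012 in a 250-kb window, -0.22 with non-blind ends, -0.035 with TMM and -0.0032 with DESeq2. Around the promoter it was -0.058 with a 20-kb mask, -0.071 in a 1-Mb window and -0.012 with non-blind ends, none of which passed the edgeR test, 0.11 with capped ends and 0.081 without the top ends. From the promoter to S4 it was 0.0044 with capped ends, and in the telomeric flank 0.034 with TMM. Against the S4-S5 mutant, the far centromeric difference passed as lower with TMM (-0.044), a 1-Mb window (-0.090), DESeq2 (-0.10) and non-blind ends (-0.16), and it was 0.53 in a 250-kb window, 0.012 with capped ends and 0.064 without the top ends, the centromeric flank was at 0.10 with non-blind ends and 0.013 with capped ends, and the promoter at 0.22 without the top ends. Against the S2 and S4 mutants the promoter was at 0.023 with non-blind ends. The telomeric to centromeric log2 ratio differed from WT by -0.042 in a 1-Mb window.

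Of the named bins, 139360001 turned positive with the chromosome 9 reads outside the mask (0.27), a 20-kb mask (0.059), a 1-Mb window (0.045), capped ends (0.14), covered ends (0.30), TMM (0.23) and DESeq2 (0.27). The bin 139400001 turned likewise, at 0.28, 0.066, 0.053, 0.11, 0.30, 0.24 and 0.28 in that order and 0.029 without the top end, and it ran from -0.0412 to 0.0218 as single libraries were left out. The promoter bin 139440001 was at -0.013 in a 250-kb window, -0.11 with non-blind ends and -0.15 with covered ends, and it passed as higher with capped ends (0.44), without the top end (0.42), with a 20-kb mask (0.15), in a 1-Mb window (0.13) and under each other scaling (0.32 to 0.36). With covered ends 139020001 was at -0.58, 139060001 at -0.24, 139620001 at -0.013, 139960001 at -0.0056 and the 1-Mb bin 106000001 at -0.998. Without the top end 139060001 was at -0.031 and 139520001 at -0.29, and with non-blind ends 139640001 was at -0.28 and 139780001 at 0.60.

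With the replicate block, 89 bins were called against WT (28 higher, 61 lower), and the promoter bin passed at 0.071 (edgeR adjusted p = 0.0447). Leaving out each library gave 86 to 89. In the S5 mutant against S4-S5 mutant comparison, leaving out the second S5 mutant library left the stretch around S2 short of the threshold (-0.042, edgeR adjusted p = 0.0780), as did leaving out the second S4-S5 mutant library around the promoter (-0.10, edgeR adjusted p = 0.0570). In some far bins all reads of a library lay at 1 end.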
